A study of Drosophila melanogaster with 20 samples.

Results

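The libraries described here came from Drosophila embryos designed to express the splice isoform Ada2b-PA as the only form of Ada2b. These 4 PA libraries, all those the labels give as ada2b_PA, were compared with 8 control libraries out of 20 libraries in the experiment. PA embryos carried the null alleles Ada2b842 and Ada2b1 in trans, elav-Gal4 and UAS-10XGFP, plus a transgene for Ada2b-PA driven by the regulatory sequences of the Ada2b gene itself. The 4 PA+PB control libraries came from embryos with the same alleles and drivers and transgenes for both isoforms. The 4 WT control libraries came from elav-Gal4>GFP embryos, which carried the drivers but neither the Ada2b alleles nor a transgene. Null embryos (the same alleles and drivers with no transgene) and PB embryos (with the Ada2b-PB transgene alone), 4 libraries each, are given beside the PA values where they bear on them, and all comparisons use the same 8 controls. Embryos were picked by hand as GFP-positive at stage 12 to 14, and each replicate was RNA from a pool of embryos. The label of WT replicate 3 gives stage 12 to 15. Elav-Gal4 drives GFP in neurons, so GFP served to select embryos and did not enrich for a tissue.

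Ada2b is a scaffold subunit of several histone acetyltransferase complexes built around Gcn5, which acetylates histone H3. The PA isoform is incorporated into CHAT, with Gcn5, Ada3, Sgf29 and Chiffon, whereas the PB isoform is incorporated into SAGA, a large coactivator of RNA polymerase II transcription that also removes ubiquitin from histone H2B, and into the smaller ADA complex. By their design, PA embryos therefore keep the isoform of CHAT and lack that of SAGA and ADA. The comparison asks which genes changed when SAGA and ADA were missing and CHAT could still form.

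PA libraries had a smaller share of their reads on genes than control libraries. Between 2508357 and 10522137 counts fell on genes in PA libraries, against 4788765 to 13816521 in PA+PB and 27684456 to 35367055 in WT, and the difference from the 8 controls did not pass the test (exact permutation p = 0.0505, 0.0866 after adjustment over 12 library measures). Counts on genes, here including the rRNA genes that the totals above leave out, were 2.39% to 8.89% of each deposited total in PA. They were 10.4% to 32.2% in the controls, and these ranges did not overlap (difference in means -14.4 percentage points, p = 0.0101, 2-sided exact permutation test over every split of 12 libraries into 4 and 8). With every library thinned to 1656080 counts, PA libraries had 7539, 5331, 8511 and 6898 genes with at least 1 count and control libraries had 7158 to 10625 (difference -2318, exact permutation p = 0.00808). That difference was -1047 at a limit of 5 counts (exact permutation p = 0.0828) and -1895 against PA+PB alone (p = 0.114), and neither passed. PA replicate 2 was the shallowest of the 12 libraries and had the fewest genes. With all libraries thinned to the smallest total 65 genes were lower and 47 higher by the test described next. With 3 counts as the floor, the smallest level that a library could show ran from 0.285 to 1.20 CPM (counts of a gene scaled to a common total of counts on genes) in PA and from 0.0848 to 0.627 CPM in the controls.

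Of 10904 genes tested, 79 were lower and 65 were higher in PA than in the controls, 144 in all. A gene was called when its FDR (the Benjamini-Hochberg adjusted p of edgeR's quasi-likelihood test) was under 0.05 and its fold change at least 0.5 on the log2 scale. The calls were 0.725% of tested genes for lower and 0.596% for higher. At an unadjusted p under 0.05, 1075 genes were lower and 1261 were higher. In the normalized CPM, all 4 PA libraries lay below all 8 controls at 538 genes (4.93% of those tested) and above them at 127 genes (1.16%). Of the genes called lower, 73 of 79 showed this separation. Of the genes called higher, 23 of 65 did, and in the other 42 at least 1 PA library lay within the range of the controls. At 30 of the 79 lower genes no PA library had a count. Among the 65 higher genes, 13 had 0 counts in 2 or 3 of the PA libraries, so the call rested on 1 or 2 libraries.

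The number of calls depended on the model and on single libraries. Scaling by DESeq2 size factors gave 113 lower and 37 higher genes, leaving out the factor of unwanted variation gave 111 and 47, and using 3 factors gave 220 and 695. Without PA replicate 4 there were 11 lower and 4 higher genes, and without PA replicate 3 there were 345 and 315. The median log2 fold change over all tested genes was 0.00, and it was -0.45 without the factor and 0.40 with 3 factors.

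**Figure D1:**
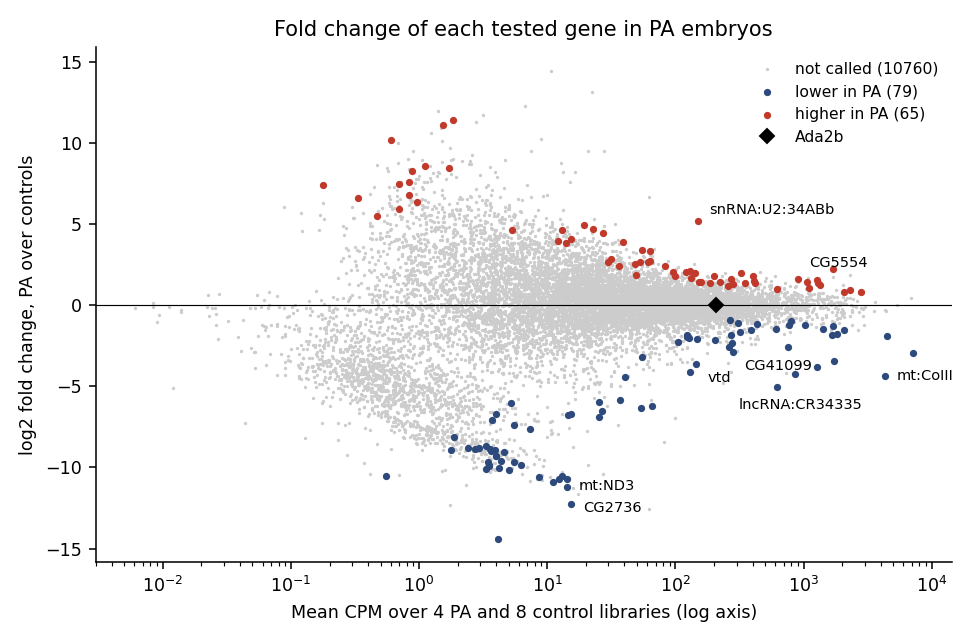
Log2 fold change of each of 10904 tested genes in PA over the 8 controls (vertical axis) against the mean CPM over the 12 libraries (horizontal axis, log scale). Blue points are the 79 genes called lower, red points the 65 called higher, grey points all others, and the black diamond is Ada2b, which lies at zero change. Called genes at high CPM show smaller fold changes than called genes at low CPM.

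Ada2b itself was counted in PA at a level within the range of the controls. Its CPM was 220, 185, 248 and 217 in the 4 PA libraries, against a lowest of 109, a median of 188 and a highest of 368 in the 8 controls, and the groups overlapped (log2 fold change -0.01, SE 0.34, FDR 0.997). The controls themselves differed, with a mean of 275 CPM in PA+PB, which carry 2 transgenes, and of 134 CPM in WT. Null libraries had 30.7 to 47.1 CPM and PB libraries 106 to 192 CPM. Counts were summed over the gene (chr3R:8236632-8240515, minus strand), so the isoform in each library was not checked by them, and PolI overlaps the gene on the opposite strand.

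No subunit of CHAT or SAGA passed the test in either direction, although the called share over all genes was low as well. The 5 CHAT genes tested had log2 fold changes with a median of 0.27. Chiffon (chif), the subunit found only in CHAT among these complexes, had 762, 543, 522 and 669 CPM in PA against 456, 561 and 895 CPM (lowest, median, highest) in the controls, and Hyls1 overlaps it on the same strand. Gcn5, the acetyltransferase, had 60.1 to 121 CPM in PA against 65.8 to 147 CPM in the controls. Among the 14 subunits of SAGA outside CHAT, the median was 0.12. Nipped-A, the largest SAGA subunit and a target of activators, had 64.2, 3.55, 123 and 52.2 CPM in PA, all below the lowest control value of 205.4 CPM (log2 fold change -1.64, SE 0.59, FDR 0.126). Sf3b5, which SAGA shares with the spliceosome, had 1.32 to 31.9 CPM in PA against 51.0 to 195 CPM in the controls (log2 fold change -2.08, SE 1.06, FDR 0.256). Atxn7, part of the deubiquitinase module, had 141 to 189 CPM in PA against 58.5 to 135 CPM in the controls (log2 fold change 0.68, SE 0.31, FDR 0.203).

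When PA was tested against WT alone and against PA+PB alone, 10 genes passed in the same direction in both, 8 lower (0.0734% of tested genes) and 2 higher (0.0183%). The lower genes were CG2736, CG43066, CG41099, vtd, lncRNA:CR34335, mt:CoI, mt:CoIII and mt:ND3, and the higher genes were snRNA:U2:34ABb and CG5554. Of 42 called genes followed through the alternatives, these 10 were called under each alternative that tested them. Both sole-control tests are among the alternatives, so no other gene of the 42 could be called under all of them. Without PA replicate 4, 10 of the 42 were still called, and without WT replicate 2, 12 were. WT as the sole control gave 9 lower and 3 higher genes, and PA+PB as the sole control gave 42 and 16.

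CG2736 (chr2R:24973431-24975341, minus strand) had no count in any PA library, against 6.57, 17.6 and 47.5 CPM (lowest, median, highest) in the controls, where 59 to 1328 reads were counted. With 3 counts over the PA libraries together as the floor, it was at least 209-fold lower in PA than the mean of the controls. This bound, like those given below for other genes, is taken from the control mean, so a single high control library raises it. It covers counting error only. A gene could also be at 0 in single PA libraries, as e(y)2 was with 0, 0, 32.7 and 19.8 CPM. CG2736 was counted in null libraries at 2.20 to 7.28 CPM and in PB libraries at 2.001 to 69.8 CPM. CG43066 (chr2R:18514574-18526439, plus strand) likewise had no count in PA, against 2.93, 9.27 and 37.1 CPM in the controls, and was at least 119-fold lower. The null libraries had 20.9 to 26.8 CPM and the PB libraries 3.77 to 30.2 CPM of CG43066, so neither gene was at 0 in another genotype.

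lncRNA:CR34335 is a long noncoding RNA of 361 nt (chrX:3545750-3546110, minus strand) that lies within DIP-alpha on the same strand. It had 19.4, 11.4, 41.4 and 6.25 CPM in PA, against 222, 1032 and 1697 CPM (lowest, median, highest) in the controls, and no PA library came near the lowest control (log2 fold change -5.06, SE 0.73, FDR 0.00330). Null libraries had 647 to 1074 CPM and PB libraries 1.86 to 56.5 CPM. The level was therefore low in PA and PB and within the control range in the null.

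RNA from the mitochondrial genome was much lower in PA. The mitochondrial genome encodes core subunits of the respiratory chain and of ATP synthase, together with its own rRNAs and tRNAs, and is transcribed by its own polymerase. Its 13 protein genes took 0.152%, 0.200%, 0.0624% and 0.0137% of the counts in PA libraries, against 0.957% to 1.98% in the controls (difference in means -1.16 percentage points, p = 0.00202 by the exact permutation test, the smallest it can give, and 0.0242 after Benjamini-Hochberg adjustment over the 12 library measures compared). Of 15 mitochondrial genes tested, 6 were called lower (0.725% of all tested genes were), 11 had all PA libraries below all controls (4.93% of all tested genes did) and none was called higher. For the 15 genes the median log2 fold change was -4.11, where the median of all tested genes was 0.00.

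Subunits of cytochrome c oxidase fell in PA. mt:CoI had 484, 252, 159 and 9.14 CPM in PA, against 1730, 2126 and 3830 CPM (lowest, median, highest) in the controls (log2 fold change -3.44, SE 0.61, FDR 0.0123). mt:CoIII had 445, 593, 250 and 12.5 CPM in PA, against 3316, 6421 and 11080 CPM in the controls (log2 fold change -4.38, SE 0.70, FDR 0.00631). PA replicate 4 was the lowest library for both, and the other 3 PA libraries were also below every control. mt:CoII, the remaining subunit, was not called (log2 fold change -2.16, SE 1.17, FDR 0.281).

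Of the 7 NADH dehydrogenase subunits of the genome, 3 were called lower (mt:ND1, mt:ND3 and mt:ND4). mt:ND1 had 138, 157, 102 and 81.3 CPM in PA, against 770, 1373 and 3860 CPM in the controls (log2 fold change -3.82, SE 0.68, FDR 0.0117). mt:ND3 had no count in PA and 10.8, 20.5 and 33.3 CPM in the controls, a difference of at least 195-fold as far as counting error goes. The other genes of the genome called lower were mt:ND4 (22.5 ± 28.3 CPM in PA and 184 ± 55.9 CPM in the controls, mean ± SD, n = 4 and 8) and mt:ATPase6, a subunit of ATP synthase (77.0 ± 60.7 CPM in PA and 1246 ± 847 CPM in the controls). The NADH dehydrogenase subunits mt:ND4L, mt:ND5 and mt:ND6 lay below all controls without passing (FDR 0.0591, 0.0967 and 0.0852). mt:ND2 overlapped the controls, with 17.7, 19.9, 0 and 0 CPM in PA against 2.54 to 52.0 CPM (log2 fold change -1.42, SE 1.55, FDR 0.608). Other members that did not pass included mt:Cyt-b, of complex III, with 0 to 120 CPM in PA against 541 to 1983 CPM in the controls (log2 fold change -4.19, SE 1.20, FDR 0.0746). The call at mt:ND1 was lost against WT alone and without PA replicate 4, and those at mt:CoI, mt:CoIII and mt:ND3 under no alternative.

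The PB libraries had a low mitochondrial level too, and the null libraries did not. The share of reads on genes was also low in PB replicates 1 to 3, at 2.53%, 5.96% and 5.32%, as in PA (2.39% to 8.89%), against 14.7% to 24.5% in null and 10.4% to 32.2% in the controls. PB replicate 4 had 27.3% on genes and 0.0515% on mitochondrial protein genes. The labels give no library batch, and the part of that share in the mitochondrial levels was not tested. mt:CoIII had 12.5 to 593 CPM in PA, 4775 to 5662 CPM in null and 57.8 to 162 CPM in PB libraries, against 3316 to 11080 CPM in the controls. Against the same 8 controls its log2 fold change was -4.38 in PA, -0.21 in null (FDR 0.921) and -6.15 in PB (FDR 0.000208). At mt:CoI the values were -3.44 in PA, -0.04 in null and -4.80 in PB.

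**Figure D2:**
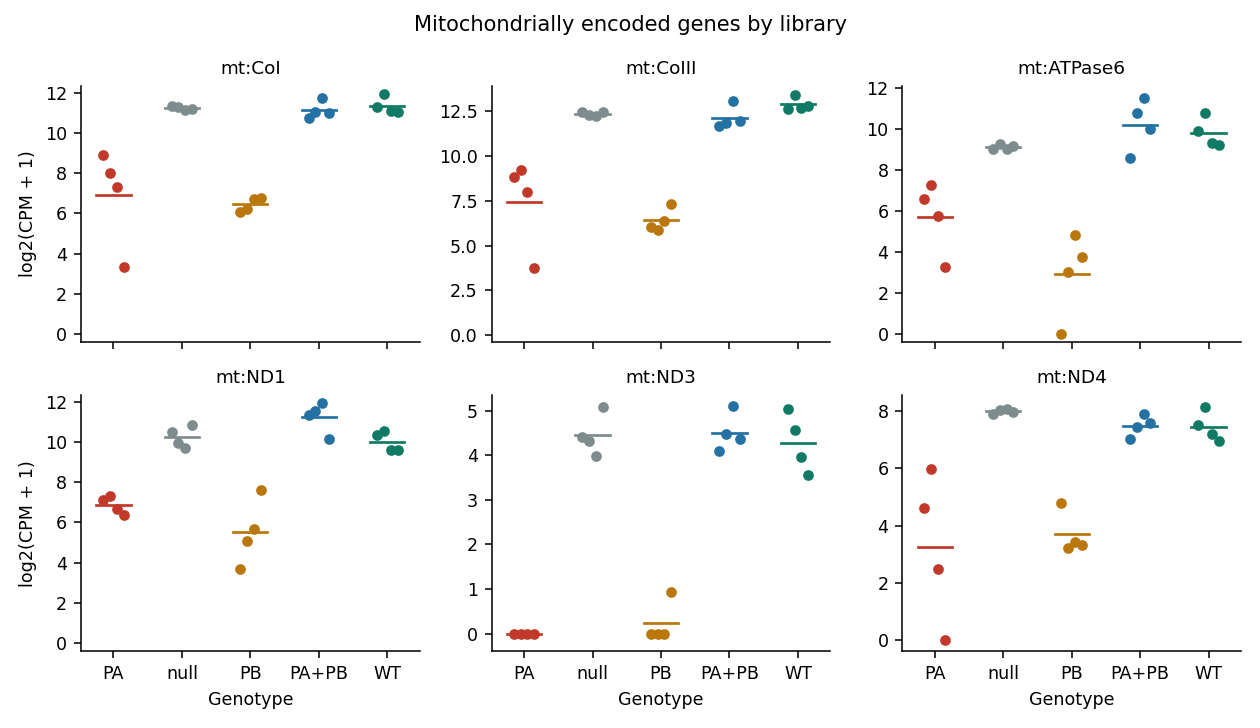
Level of the 6 mitochondrially encoded genes called lower in PA, as log2(CPM + 1) on the vertical axis, in each library of the PA, null, PB, PA+PB and WT genotypes. Points are libraries and bars are means of 4. In every panel the 4 PA libraries lie below the 8 PA+PB and WT libraries, and the PB libraries lie low as well, whereas the null libraries do not.

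Genes of chromosome 4 and of the centromere-proximal ends of 2R and 3L were also lower in PA as a group. Chromosome 4 is a small chromosome packaged largely as heterochromatin, and the chromosome arms next to the centromeres are heterochromatic too. The windows were chosen after the called genes had been seen, and no test was made of them. On chromosome 4, 4 of 91 tested genes were called lower (0.725% of all tested genes), 34 (37.4%) had all PA libraries below all controls (4.93% of all tested genes) and none lay above. Within 5 Mb of the start of 2R, 2 of 39 genes were called lower, 1 was called higher (dpr21, counted in PA replicate 3 alone) and 17 (43.6%) lay below. Within 5 Mb of the end of 3L, 3 of 34 were called lower, none was called higher and 16 (47.1%) lay below. The median log2 fold change was -1.05 on chromosome 4, -1.84 at the end of 2R and -2.22 at the end of 3L. The 5 Mb next to the centromere of 2L, 3R and X had medians of -0.02, 0.02 and 0.08 over 334, 97 and 247 genes. These windows held more genes than those of 2R and 3L, and shorter ones. Their genes spanned a median of 2852, 3186 and 3536 nt, against 7156 nt in proximal 2R and 5824 nt in proximal 3L. The windows are therefore not alike, and the medians need not hold for the genes nearest the centromeres of 2L, 3R and X. In the windows of 2L, 3R and X, 2, 3 and 2 genes were called lower and 4, 1 and 1 higher. All PA libraries lay below all controls at 5.99%, 9.28% and 2.83% of their genes (4.93% of all tested genes), and above them at 3, 0 and 3 genes.

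The summed CPM of chromosome 4, proximal 2R and proximal 3L separated PA from every control library. Tested genes of chromosome 4 took 5807, 3936, 8902 and 4046 CPM in PA, against 15380 to 19050 CPM in the controls. The proximal genes of 2R took 869, 766, 1483 and 438 CPM in PA, against 2388 to 5009 CPM, and those of 3L took 1899, 1939, 2596 and 857 CPM in PA, against 4371 to 11740 CPM. On chromosome 4, null libraries had 12420 to 16210 CPM and PB libraries 1697 to 9622 CPM. For proximal 2R, null libraries had 1945 to 2097 CPM, all below the lowest control, and PB libraries 196 to 970 CPM. For proximal 3L, null libraries had a lowest of 4082 CPM and a median of 4498.5 CPM, overlapping the controls, and PB libraries 558 to 1780 CPM. The medians of these 3 groups of genes stayed below the median of all genes under each of the 10 alternatives compared, by 0.85 to 1.33 for chromosome 4, 1.02 to 2.14 for 2R and 1.69 to 2.33 for 3L on the log2 scale. Median exon length was 3720 nt on chromosome 4, 2454 nt in proximal 2R and 1506.5 nt in proximal 3L, against 2011 nt over all tested genes.

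**Figure D3:**
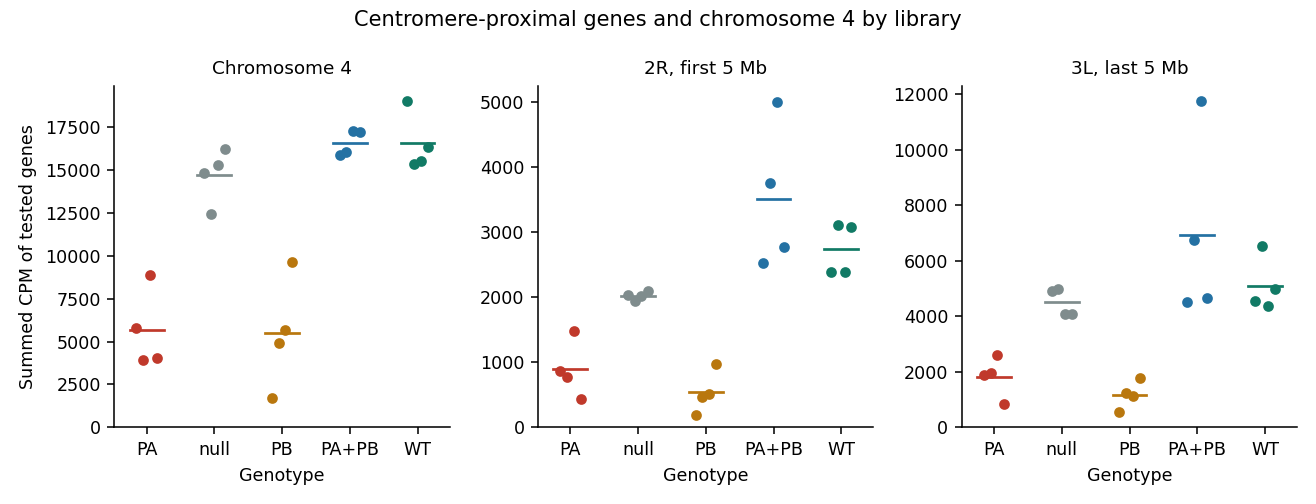
Summed CPM of the tested genes of chromosome 4, of the first 5 Mb of 2R and of the last 5 Mb of 3L (vertical axes) in each library of the 5 genotypes. Points are libraries and bars are means of 4. PA libraries reach at most 8902, 1483 and 2596 CPM, below the lowest PA+PB or WT library at 15380, 2388 and 4371 CPM.

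The called genes of these windows included vtd and Nipped-B. vtd, which encodes the cohesin subunit Rad21 (chr3L:27136525-27157999, plus strand), had 12.5, 2.13, 38.4 and 6.73 CPM in PA, against 163, 209 and 288 CPM (lowest, median, highest) in the controls, with no overlap (log2 fold change -3.63, SE 0.59, FDR 0.00631). Null libraries had 96.1 to 127 CPM and PB libraries 6.91 to 49.1 CPM of vtd. Nipped-B, the loader of cohesin at the start of 2R, had 97.8, 63.3, 143 and 30.3 CPM in PA, against 304, 355 and 437 CPM in the controls (log2 fold change -1.84, SE 0.41, FDR 0.0358). Nipped-B, dpr21, uex, PMCA, RpS3A, RpL10 and asRNA:CR44030 were chosen after their values were seen, to complete the 9 lower calls and 1 higher call of the windows.

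CG41099 (chr3R:3846729-3868401, plus strand), near the centromere of 3R, had 69.96, 48.7, 113 and 18.99 CPM in PA, against 185, 332 and 525 CPM in the controls (log2 fold change -2.57, SE 0.42, FDR 0.00631). Null libraries had 97.4 to 119 CPM and PB libraries 31.0 to 42.3 CPM, both below the lowest control, and the null was also past the threshold (log2 fold change -1.72, FDR 0.0129). uex, a magnesium transporter gene of proximal 2R, had 14.8 to 48.2 CPM in PA against 92.8 to 209 CPM in the controls (log2 fold change -2.26, SE 0.44, FDR 0.0264). On chromosome 4, MED26 of the Mediator complex had 123, 37.7, 188 and 107 CPM in PA, against 290, 385 and 680 CPM in the controls (log2 fold change -1.66, SE 0.39, FDR 0.0442). It was the only one of 28 tested Mediator genes that was called (0.725% of all tested genes were called lower), and held under 16 of 28 alternatives. PMCA, a calcium pump of the plasma membrane, had 39.1 to 205.1 CPM in PA against 391.6 to 593 CPM in the controls, and RpS3A, of the small ribosomal subunit, had 240 to 1110 CPM against 1447 to 4600 CPM. Further lower calls were RpL10 of 3L, of the large ribosomal subunit (287 to 863 CPM in PA against 1276 to 3797 CPM), and asRNA:CR44030 of chromosome 4 (no count in PA against 1.63 to 6.11 CPM). The remaining lower call, ND-AGGG of proximal 3L, is described below with the respiratory chain.

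Genes for cytoplasmic ribosomal proteins moved in both directions. Of 89 tested, 8 were called lower and 5 higher, where 0.725% and 0.596% of all tested genes were, and the median log2 fold change was -0.34. This median lay below that of all genes by 0.34, but above it in the fit without the factor and in the fit with the exon-length trend removed (by 0.18), so the list had no single direction. The calls became 13 lower and 0 higher with DESeq2 size factors, and 1 lower and 10 higher with the exon-length trend removed. RpL41, which encodes the shortest protein of the ribosome, had 1746, 1628, 1323 and 481 CPM in PA, against 5766, 7614 and 25010 CPM (lowest, median, highest) in the controls (log2 fold change -2.95, SE 0.54, FDR 0.0139). RpL23 had 723, 675, 1197 and 609 CPM in PA, against 1600, 2134 and 2866 CPM in the controls (log2 fold change -1.26, SE 0.25, FDR 0.0311). RpL21 had 471 to 1508 CPM in PA against 1854 to 5390 CPM in the controls. RpL41, RpL23 and RpL21 were called under 25, 21 and 15 of 28 alternatives, and none of the 3 was called with the exon-length trend removed.

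Other ribosomal protein genes rose. RpL3 (chr3R:11221894-11225173, plus strand) had 3174, 3654, 4529 and 4282 CPM in PA, against 1991, 2194 and 2845 CPM in the controls (log2 fold change 0.80, SE 0.16, FDR 0.0311). RpL6 had 3260, 4871, 2741 and 3742 CPM in PA, against 1450, 1595 and 2271 CPM in the controls (log2 fold change 0.94, SE 0.20, FDR 0.0311). The PA libraries lay above all controls at both genes, which were called under 17 and 19 of 28 alternatives. Several snoRNA genes lie within RpL3 on the same strand, and their reads could not be told apart from its own where they overlap.

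Nuclear genes of the respiratory chain had few calls. Of 69 tested, 2 were called lower and none higher, where 0.725% and 0.596% of all tested genes were, and the median log2 fold change was -0.26, which turned above that of all genes in the fit without the factor and with the exon-length trend removed. ATPsynE, a small subunit of ATP synthase, had 32.8, 41.2, 83.0 and 13.8 CPM in PA, against 121, 183 and 366 CPM in the controls (log2 fold change -2.09, SE 0.45, FDR 0.0331), and was called under 19 of 28 alternatives. ND-AGGG, of NADH dehydrogenase and in the proximal stretch of 3L, had at most 1.26 CPM in PA against 16.3 to 92.2 CPM in the controls. Of 71 mitochondrial ribosomal protein genes, mRpL33 was called, with a count in PA replicate 3 alone (2.23 CPM) against 22.2 to 66.8 CPM in the controls.

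Exon length moved with the fold change. The median log2 fold change was -2.49 over 226 genes with under 300 nt of exon, -1.87 over 253 genes of 300 to under 500 nt, -0.68 over 1534 genes of 500 to under 1000 nt and 0.27 over 1451 genes of 5000 nt and over. Genes with under 300 nt had all PA libraries below all controls in 14.6% of cases and those of 2000 to under 5000 nt in 3.97%. Genes with under 500 nt took 1.38% to 1.71% of counts in PA and 1.92% to 4.27% in the controls (exact permutation p = 0.0222, 0.0533 after adjustment over the 12 measures). Removal of each library's trend with exon length left 73 genes lower and 106 higher, of which 56 and 53 were among the calls above. The part of exon length in single calls was not tested further.

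**Figure D4:**
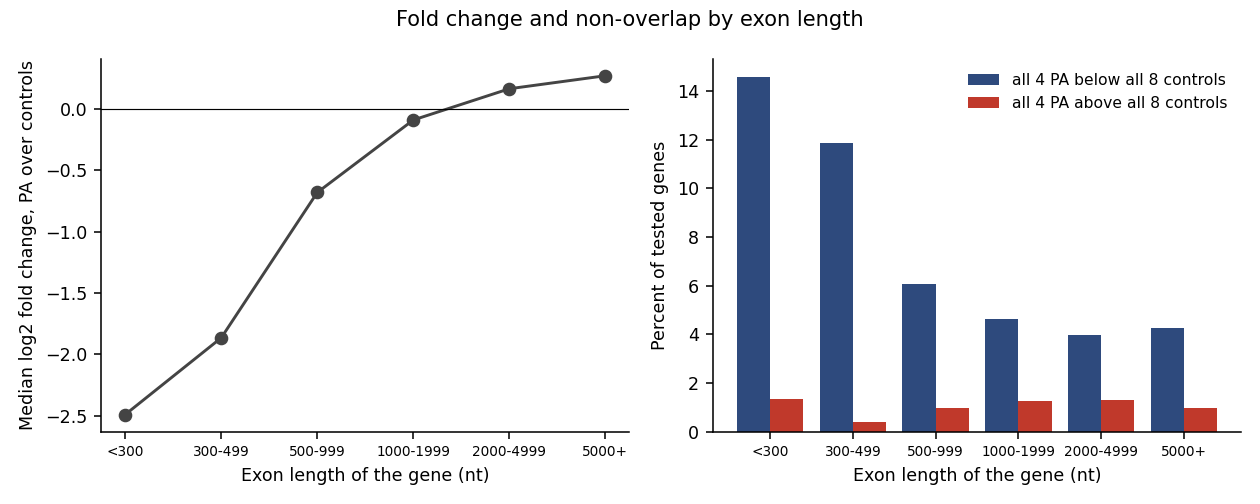
Median log2 fold change in PA over the 8 controls (left) and percent of tested genes with all 4 PA libraries below or above all 8 controls (right) by total exon length of the gene in nt. The median runs from -2.49 under 300 nt to 0.27 at 5000 nt and over, and the percent below runs from 14.6% under 300 nt to 4.27% at 5000 nt and over.

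Small nuclear and nucleolar RNAs, which guide splicing and the modification of other RNAs, included the gene with the smallest FDR. Of 162 tested, 3 were called lower and 3 higher (0.725% and 0.596% of all tested genes were), 125 had a negative fold change and the median was -2.19, while their median exon length was 141 nt. With the exon-length trend removed, 1 was called lower and 7 higher, and the median lay 0.59 below that of all genes. snRNA:U2:34ABb (chr2L:13215839-13216030, plus strand), a copy of the U2 spliceosomal RNA, had 618, 389, 204.7 and 461 CPM in PA, against 3.75, 13.7 and 27.2 CPM (lowest, median, highest) in the controls (log2 fold change 5.16, SE 0.58, FDR 0.000111). Every PA library was far above every control. Null libraries had 31.1 to 101 CPM, also above the highest control, and PB libraries 254 to 1045 CPM, giving log2 fold changes of 2.04 in null and 5.71 in PB against the same controls.

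A further U2 copy, snRNA:U2:14B, had 102, 50.8, 64.5 and 51.5 CPM in PA, against 2.58, 14.5 and 27.2 CPM in the controls (log2 fold change 2.82, SE 0.66, FDR 0.0442), and was called under 14 of 28 alternatives. The U2 genes are near-identical copies, and reads that match several places were not counted, so the level of one copy is uncertain. The other U2 copies were not called, and snRNA:U2:34ABa had 8.53 to 68.1 CPM in PA against 1.88 to 78.5 CPM in the controls. Ice1, whose product takes part in transcription of snRNA genes, was higher, with 86.5, 84.3, 63.4 and 86.2 CPM in PA against 4.52, 19.1 and 35.0 CPM in the controls (log2 fold change 3.91, SE 0.87, FDR 0.0358). It was called under 15 of 28 alternatives, over which its log2 fold change ran from 2.085 to 4.59. Among the RNAs called lower, snoRNA:Psi18S-920, inside RpL10Ab, had no count in PA against 2.24 to 8.86 CPM in the controls, and scaRNA:PsiU2-55, inside Prp8, had a count in PA replicate 4 alone (0.120 CPM) against 3.26 to 18.2 CPM.

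Further genes were without counts in PA. In all, 1581 tested genes had no count in any PA library, and 30 of these were called lower. CG7601 had no count in PA and 11.6, 15.5 and 34.03 CPM (lowest, median, highest) in the controls. It was at least 169-fold lower in PA as far as counting error goes, and was called under 18 of 27 alternatives. slif, the transporter slimfast for cationic amino acids, had no count in PA and 3.26, 11.2 and 75.4 CPM in the controls. Mp, which encodes a collagen of the basement membrane, had no count in PA and 0.786, 3.79 and 101 CPM in the controls, with WT replicate 1 far above the other WT libraries. Trs31, a subunit of the TRAPP tethering complex, had no count in PA against 4.29 to 12.2 CPM in the controls and 15.1 to 21.4 CPM in null libraries. CG17162, near the centromere of X, had no count in PA or PB and 4.99 to 14.8 CPM in the controls.

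Among genes of high level, the endoplasmic reticulum chaperone calreticulin rose in PA. Calr (chr3R:9628691-9630851, minus strand) had 2503, 3659, 2947 and 4948 CPM in PA, against 90.1, 654 and 1662 CPM (lowest, median, highest) in the controls (log2 fold change 2.22, SE 0.53, FDR 0.0473). Null libraries had 1890 to 2112 CPM and PB libraries 890 to 4603 CPM. CG5554 (chr2R:23845001-23847024, plus strand) had 1704, 2738, 1056 and 1576 CPM in PA, against 376, 432 and 663 CPM in the controls, with no overlap (log2 fold change 1.64, SE 0.25, FDR 0.00330). Null libraries, at 345 to 508 CPM of CG5554, were within the control range, and PB libraries, at 678 to 1545 CPM, were above it.

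Rm62, a DEAD-box RNA helicase, had 2900, 3064, 2068 and 4426 CPM in PA, against 1223, 1504 and 1904 CPM in the controls (log2 fold change 0.83, SE 0.21, FDR 0.0499). Smaller genes with all PA libraries above all controls included cpb, the beta subunit of the actin capping protein (129 to 268 CPM in PA against 13.4 to 102 CPM), and Rrp1, a DNA repair endonuclease (183 to 313 CPM against 19.7 to 139 CPM). Syx18, a syntaxin of the endoplasmic reticulum, had 54.1 to 99.5 CPM in PA against 2.44 to 26.4 CPM in the controls, and Ccdc85 had 61.9 to 152 CPM against 8.30 to 49.3 CPM. Calr, Rm62, Rrp1, Syx18 and Ccdc85 were called under 8 to 12 of 28 alternatives and cpb under 21, against all 28 at CG5554 and snRNA:U2:34ABb. The first 5 were each lost without PA replicate 1, 2 or 4, without PA+PB replicate 2, 3 or 4 and without WT replicate 1, 2 or 4, and cpb was lost without PA replicate 1 or 4, PA+PB replicate 2 or WT replicate 2.

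**Figure D5:**
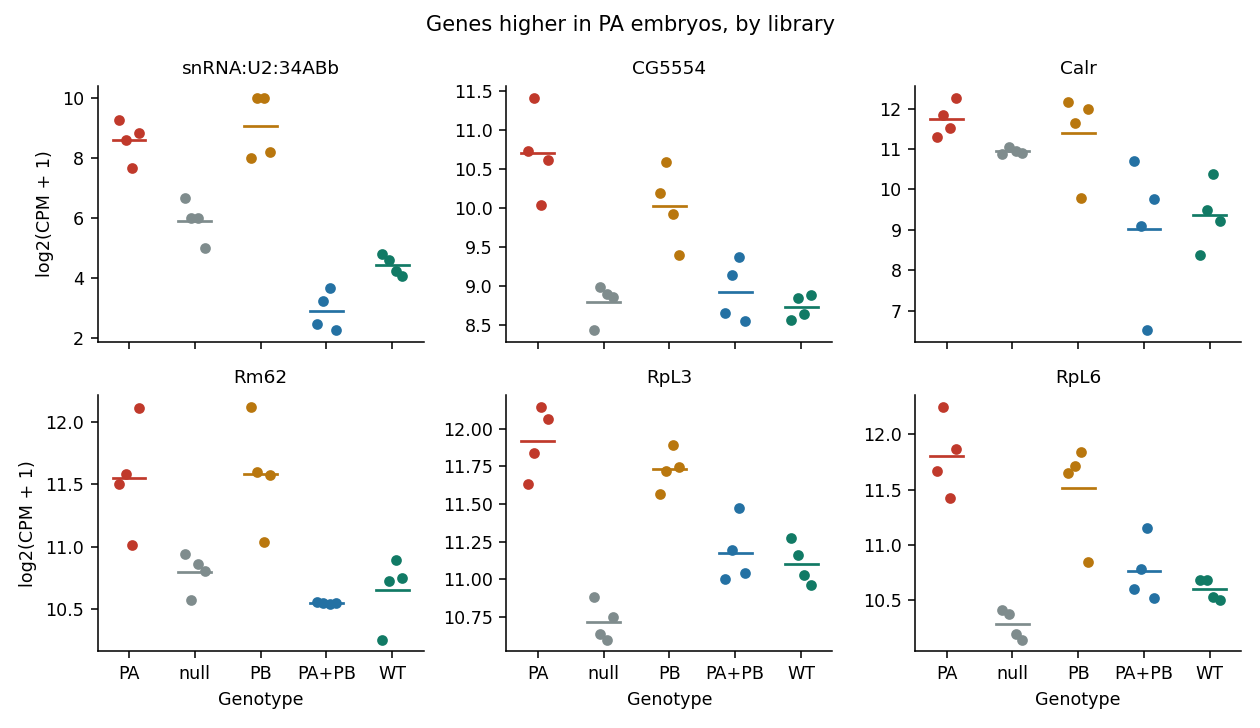
Level of 6 genes called higher in PA, as log2(CPM + 1) on the vertical axis (axes do not start at 0), in each library of the PA, null, PB, PA+PB and WT genotypes. Points are libraries and bars are means of 4. The 4 PA libraries lie above the 8 PA+PB and WT libraries in every panel, most clearly at snRNA:U2:34ABb (204.7 to 618 CPM against 3.75 to 27.2 CPM).

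Heat shock and chaperone genes were represented by Hsp83, the fly HSP90, the only one of 19 tested that was called (0.596% of all tested genes were called higher). It had 898, 386, 369 and 540 CPM in PA, against 52.4, 213 and 450 CPM in the controls, and 2 PA libraries lay within the control range, with the call held under 10 of 28 alternatives (log2 fold change 2, SE 0.47, FDR 0.0442). PB libraries had 454 to 2466 CPM. The median of the 19 was 1.03, and 7 had an unadjusted p under 0.05 in the higher direction, as had 1261 of all 10904 tested genes.

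The homeotic genes, which set segment identity along the body axis, had positive fold changes throughout, with 1 called higher (0.596% of all tested genes were). All 8 were tested, their median log2 fold change was 1.64, and it stayed above that of all genes by 0.88 to 2.20 under the 10 alternatives. Scr, which specifies labial and first thoracic segments, had 67.1, 102, 69.2 and 191 CPM in PA, against 5.01, 35.5 and 88.6 CPM in the controls, so the groups overlapped (log2 fold change 3.34, SE 0.74, FDR 0.0358), and the call held under 13 of 28 alternatives. Scr had a mean of 107 CPM in PA and 42.0 CPM in the controls. Its fitted log2 fold change, which depends on the factor of unwanted variation, ran from 1.35 to 3.84 over the alternatives. Of its neighbours in the Antennapedia complex, Dfd had a log2 fold change of 2.88 (SE 0.94, FDR 0.0985) and Antp of 1.10 (SE 0.50, FDR 0.211), neither called. In the list of Polycomb and Trithorax group genes, which hold homeotic genes silent or active, E(z), the H3K27 methyltransferase, was called among 28 tested (28.1, 0, 15.9 and 25.01 CPM in PA, against 0.122, 8.46 and 24.2 CPM in the controls). PA replicate 2 had no count of E(z), the groups overlapped, and the call held under 5 of 27 alternatives, with every library but PA replicate 3 needed for it.

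Cell type markers gave no call for neurons (14 tested), glia (8), muscle (22), hemocytes and basement membrane (17), trachea (8), salivary gland (6), gut (7), septate junctions (20) or germ cells (18). The median log2 fold change of these lists ran from -0.67 in germ cells to 1.89 in salivary gland. Summed neuron markers had 313 to 896 CPM in PA against 356 to 1512 CPM in the controls, and summed muscle markers 1814 to 6793 CPM against 3242 to 30500 CPM. Neuroblast markers, those of the dividing precursors of neurons, had 1740 to 2948 CPM in sum in PA against 154 to 1964 CPM in the controls. None of the 16 neuroblast genes was called, 8 had an unadjusted p under 0.05 in the higher direction, as had 1261 of all 10904 genes, and the median was 1.44. Over all tested genes, 0.725% were called lower and 0.596% higher. The lowest FDR there was at pdm2, a POU transcription factor of the neuroblast series (31.8, 63.6, 35.4 and 147 CPM in PA, against 4.52, 15.0 and 36.3 CPM in the controls, FDR 0.0526). In bulk embryos, fewer cells of a type and less RNA per cell cannot be told apart. No testis marker was tested, since none passed the filter, and the 5 ovary markers that passed summed to at most 10.3 CPM in PA and 19.6 CPM in the controls.

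Genes that mark the end of embryogenesis varied widely in both groups. Of 67 cuticle protein genes, 1 was called higher (0.596% of all tested genes were), the median was -1.90, and they summed to 8.53 to 456 CPM in PA against 14.0 to 17490 CPM in the controls. The called gene, Cpr60D, was counted in PA replicate 3 alone (5.72 CPM), in PA+PB replicate 4 (3.03 CPM) and in WT replicate 1 (1.27 CPM). The caspase gene Damm, the only call among 17 cell death genes, was likewise counted in PA replicate 3 (1.65 CPM), PA+PB replicate 4 (1.73 CPM) and WT replicate 1 (0.600 CPM), and in no other of the 12 libraries. The fitted fold changes of both were positive and rest on these single libraries. Cyp6a20, the only call among 58 genes of xenobiotic and metal stress, had a count in PA replicate 3 alone (0.0969 CPM) against 0.627 to 15.4 CPM in the controls. It was called lower, as were 0.725% of all tested genes.

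Lists with no call in either direction were the ATAC complex, another Gcn5 complex (9 tested, median 0.91), other acetyltransferases (9, median 0.21), histone deacetylases and sirtuins (9, median 0.40), H3K9 methylation and HP1 (11, median 0.37), histone variants (6, median -0.43) and replication-dependent histones (6 of 111, median 1.81). The same held for DNA replication (20, median 0.36), cyclins and mitotic regulators (18, median 0.01), the proteasome (32, median 0.38), segment polarity (22, median 0.19), ecdysone (22, median 0.61), chitin and barrier (12, median 0.90), dosage compensation and sex determination (16, median 0.29) and antimicrobial peptides (1 tested). The piRNA pathway, which silences transposons, had no call among 24 tested, with 21 negative and a median of -0.72. Over all tested genes, 0.725% were called lower and 0.596% higher, so the lack of a call in lists this small says little about them. AGO3, a piRNA Argonaute in proximal 3L, had 26.9, 5.33, 41.8 and 0 CPM in PA, all below the lowest control value of 78.4 CPM (log2 fold change -3.33, SE 1.10, FDR 0.102).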

How the data were processed

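The deposited table holds read counts by gene, which the authors made by trimming with Trimmomatic, mapping with HISAT2 to the dm6 genome and counting with htseq-count (0.11.1) at its default setting, which uses strand and drops reads with several matches. Whether the library kit keeps strand is not given in the sources used here, so overlapping genes are uncertain. Column names stand 1 place to the right of their values and were assigned in order.

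The table held 17807 genes. The 5 summary values, 2 transgenes and 138 rRNA genes were left out. The analysis used edgeR (4.0.16) in R (4.3.3): filterByExpr on 5 genotypes, TMM, 1 factor of unwanted variation from the deviations of replicates (written after RUVs, since the authors normalized with RUVSeq) and quasi-likelihood tests over all 20 libraries, with the 8 controls as 1 group. SE is the absolute fold change over the square root of F. SE and the p-values of this fit measure spread between pools of embryos that the factor leaves. With the controls as 1 group, that spread also holds any difference between WT and PA+PB. CPM were TMM-normalized without the factor, so they and the fitted fold changes can differ. The factor averaged 0.677 in PA and -0.257 in the controls (exact permutation p = 0.0505, 0.0866 after adjustment over the 12 library measures). It was 1.97 in PA replicate 2. Counting floors cover counting error only. Symbols, positions and exon lengths came from Ensembl release 115 (17710 identifiers matched). Code was tested on simulated data.

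Named genes were, among called genes with a mean CPM of at least 5 and no overlap of groups, the 8 with the largest change each way, the 4 called genes of highest mean CPM each way, CHAT and SAGA subunits, up to 4 called members of each list (or the member of smallest p) and genes called against both controls separately. Not all were described. Members named to complete a count (mt:ND4, mt:ATPase6, mt:CoII, mt:Cyt-b, snRNA:U2:34ABa, Dfd, Antp and those of the chromosome windows) fell outside this rule and were chosen after their values were seen. The comparison and the gene lists were chosen with earlier results of these data known. DESeq2 (1.42.0) gave alternatives. Promoter motifs were not analysed here, and 1 named gene is not reported here.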

Additional observations from a re-analysis of the deposited data

Results flagged for a closer look

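Among 150 groups of 4 libraries examined, 22 held a library that stood far from the other 3. The cutoff flags about 1 in 20 by chance for normally distributed values. A single library with a count beside 3 without is always flagged, so the number flagged is no measure of an excess over chance. In PA, replicate 3 stood apart at Ice1 (63.4 CPM, against 84.3 to 86.5 CPM in the others), and was the only PA library with a count at Cpr60D (5.72 CPM), Damm (1.65 CPM), mRpL33 (2.23 CPM) and Cyp6a20 (0.0969 CPM). PA replicate 4 was alone in having a count at scaRNA:PsiU2-55 (0.120 CPM).

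In PA+PB, replicate 3 stood apart at RpL41 (25010 CPM), mt:CoIII (8489 CPM), lncRNA:CR34335 (1010 CPM) and ATPsynE (366 CPM), in each case above the other 3, and replicate 4 at Mp (48.3 CPM), Damm (1.73 CPM) and Cpr60D (3.03 CPM), above them, and Trs31 (5.99 CPM), below them. In WT, replicate 1 stood above the others at Mp (101 CPM), slif (75.4 CPM), Damm (0.600 CPM) and Cpr60D (1.27 CPM). WT replicate 2 had the highest share of counts on mitochondrial protein genes (1.98%, against 1.07% to 1.10% in the other 3). WT replicate 3, labelled with the later stage, was high at Syx18 (26.4 CPM) and low at Ada3 (84.1 CPM), and WT replicate 4 was high at chif (895 CPM).

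The transgenes, outside the comparison, were counted at low level. GFP reached 6.32 CPM in the highest PA library, against 0 to 0.724 CPM in the controls, although 2 PA libraries had no GFP count. Gal4 reached 12.8 CPM in the highest PA library, against 0 to 6.31 CPM in the controls.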

How the results depend on the processing

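Over the alternatives, the calls changed in number far more than in direction. Of the 144 calls, none changed sign except 1 without the factor and 1 without PA replicate 3. Counts of lower and higher genes, 79 and 65 in the fit reported, were 75 and 21 with no filter, 158 and 355 with only genes counted in each of the 12 libraries, 900 and 555 with DESeq2's Wald test, 186 and 162 with 2 factors, 220 and 695 with 3, 111 and 47 with none, 113 and 37 with DESeq2 size factors, 328 and 84 with only the 12 libraries in the fit, 37 and 41 against the mean of both controls as separate groups, 9 and 3 against WT alone, 42 and 16 against PA+PB alone, 65 and 47 with all libraries thinned to the smallest total and 77 and 61 at a log2 fold change of at least 1. Chosen after seeing the data, the exon-length trend removed gave 73 and 106, and 2 control groups with no factor gave 61 and 42. Also chosen then, leaving out PA replicate 2 and PA+PB replicate 3 gave 19 and 25. These had the fewest genes detected at equal depth in PA and in the controls.

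Leaving out 1 library gave 11 to 345 lower and 3 to 315 higher genes: 16 and 6 without PA replicate 1, 31 and 52 without PA replicate 2, 345 and 315 without PA replicate 3, 11 and 4 without PA replicate 4, 48 and 40 without PA+PB replicate 1, 13 and 3 without PA+PB replicate 2, 22 and 16 without PA+PB replicate 3, 25 and 12 without PA+PB replicate 4, 67 and 18 without WT replicate 1, 12 and 4 without WT replicate 2, 67 and 64 without WT replicate 3, and 28 and 16 without WT replicate 4. With a replicate block in the fit, 17 genes were lower and 5 higher. The labels do not say that equal numbers share anything, and the deviations of same-numbered PA and PA+PB libraries correlated at -0.06 to 0.07 and those of PA and WT at -0.03 to 0.02, so the numbers were not taken as pairs. The cause of these changes was not tested.

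Ada2b was called under no alternative. Its log2 fold change was 0.13 with only genes counted in each library, 0.0911 with no factor, 0.0564 with 2 factors and 0.0553 with 3. It was -0.17 with DESeq2 size factors, -0.20 with DESeq2's Wald test and -0.18 with no filter. With the exon-length trend removed it was -0.11, and with only the 12 libraries in the fit -0.07. It was 0.13 against the mean of both controls, 0.63 against WT alone and -0.37 against PA+PB alone. With thinned libraries it was 0.0143, with the replicate block 0.00997 and with 2 control groups and no factor 0.18. It was 0.30 without PA replicate 2 and PA+PB replicate 3, and -0.20 to 0.25 when 1 library was left out. The difference in genes detected at equal depth was -1047 at a limit of 5 counts (exact permutation p = 0.0828) and -1895 against PA+PB alone (p = 0.114), and -2799 to -1739 when 1 library was left out. The difference in the share of counts on genes was -15.9 to -12.7 percentage points when 1 library was left out.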
